A study of Mus musculus with 98 samples.

Results

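The replication-dependent histone genes were followed through 98 RNA sequencing libraries of mouse hippocampal neurons and hippocampus. Most are the clustered genes for the linker histone H1 and the core histones H2A, H2B, H3 and H4. They were picked by symbol: H1f1 to H1f5 and any H2ac, H2bc, H3c or H4c symbol ending in a number. An older symbol starting with Hist1h to Hist4h and a class digit was also taken. This choice takes in 2 annotated pseudogenes as well, Hist1h2al and H2ac14. Applied to every table, the rule found 65 genes among 55852 symbols. In the rule's own wording the newer symbols belong to the tables of virus-treated neurons and the older ones to the rest, which gives 64 genes in all but only 9 of 65 in each of the other tables, because most of those rows already carry the newer symbols. Both patterns were therefore used in all 6 tables, which hold 64 or 65 of the genes each. Of these, 58 had at least 1 count in the unstimulated neurons, 58 in the stimulated neurons, 58 in the tau culture, 56 in the aged mice, 49 in the 10-month mice and 60 in the PS19 mice.

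The neurons were primary embryonic hippocampal cultures of CD1 mice. On day 5 of culture they received a PhP.eB virus, an engineered adeno-associated virus, either upACSS2, which raises Acss2, or the vector, for 48 hours, and on day 7 hAD-tau, the tau material of the study, or PBS. The 4 combinations were sampled on day 9 and on day 21 (3 libraries each, unstimulated), and again on day 21 after a stimulation that the labels do not describe (3 each, in a separate table). A further culture, sampled on day 21, had hAD-tau (4 libraries) or PBS (3) and no virus. The mice were all males that carried upACSS2 or vector, so no mouse group was without virus. C57BL6 mice aged 22 to 23 months (12 and 12, whole hippocampus) were injected behind the eye at 21 to 22 months and taken 2 months later, 30 min after remote context recall. C57BL6 mice aged 10 months (6 upACSS2 and 5 vector, dorsal hippocampus) were taken 2 weeks after injection and 30 min after fear conditioning. PS19 mice, which carry a mutant human tau transgene under the Prnp promoter, were injected at 2.5 months and taken 1 month (3.5 months old) or 6 months (8.5 to 9 months old) later, 5 per virus and time. Among the 4 PS19 groups, upACSS2 at 1 month is labelled whole hippocampus and the rest dorsal, so virus and tissue cannot be told apart at that time. Groups follow the sample titles, since the treatment entry contradicts the title for neurons with vector and tau, for neurons with upACSS2 and PBS and for some PS19 mice. Nothing in the labels says that replicate neuron libraries came from separate cultures, so p-values measure the spread between these libraries, which may be technical.

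The counts of a library summed to 14603730 to 33960722 in the unstimulated neurons, 18804544 to 39985460 in the stimulated neurons, 5683314 to 29890248 in the tau culture, 11436140 to 28161314 in the aged mice, 5075099 to 10839489 in the 10-month mice and 6910945 to 33259982 in the PS19 mice. The histone genes took 0.00289% to 0.0193% of a library's counts. Levels below are CPM (a gene's counts scaled to the TMM-adjusted library size), and 1 count was worth a median of 0.0459 CPM in the unstimulated neurons and 0.138 CPM in the 10-month mice. Acss2, whose product turns acetate into acetyl-CoA, lay between 40.1 and 57.8 CPM in the neurons with vector and between 1487 and 5460 CPM with upACSS2. In the mice the gap was far smaller: 39.9 to 53.6 CPM against 46.6 to 61.4 CPM in the aged mice, and 42.2 to 48.7 CPM against 49.8 to 59.1 CPM at 10 months. PS19 mice ran from 43.6 to 65.5 CPM with vector, from 59.6 to 1464 CPM with upACSS2 at 1 month and from 45.9 to 236 CPM at 6 months. The 8 neuron markers were present in every library of the cultures, and so were all 8 astrocyte markers.

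Replication-dependent histone genes supply the histones that package new DNA, and most of their mRNA is made while cells copy their genome. Their mRNAs do not end in a poly(A) tail but in a short stem-loop, which is bound by the stem-loop binding protein Slbp and cut by a complex that includes the U7 small nuclear ribonucleoprotein. Some of the genes also give longer or spliced transcripts with a poly(A) tail, which cells that no longer divide can make. The labels' protocols name an NEB kit that is sold for the isolation of poly(A) mRNA, so a value here may leave out histone mRNA without a tail.

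The stem-loop is shown first, because whether a gene's annotated transcript runs on past it divides the family. A search of the GENCODE M21 transcripts (GRCm38, the build named mm10 in the submitters' processing notes) looked after each coding end for a 6-base stem and a 4-base loop. The stem had to start with GG and the loop with TT, and the far side of the stem had to be its exact reverse complement. The stem is in capitals, the loop in lower case, and each is written 5′ to 3′ as DNA.
H1f2, H1f3, H1f4, H2ac6, H2bc6 and H2bc8: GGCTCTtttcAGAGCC
H4c8: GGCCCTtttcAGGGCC
H4c9: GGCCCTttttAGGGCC
H2bc3, H2bc12 and H3c3: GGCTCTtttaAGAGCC
H2ac20: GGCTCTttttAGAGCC
H4c2 and H4c11: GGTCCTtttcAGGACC

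The elements lay 22 to 59 bases after the coding end. The transcript of H4c8 ended 46 bases after the loop. By contrast, the transcript went on for 840 bases after the loop in H1f2, 1861 in H2bc6, 2010 in H2ac6, 4884 in H1f3, 1153 in H1f4 and 330 in H4c9. Of the 63 members with a protein-coding model, 22 ended within 100 bases of the stem-loop, 18 ran 100 bases or more past it and 23 had no such element in the annotated transcript. In the last set is H2bc4, whose model has 2 exons, together with H2bc21 and H2bc18. A model that stops near its coding end leaves little to search, and that of H2bc18 has 381 exon bases in all. Lack of the element can thus lie in the annotation.

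H2bc6 is shown with both of its RefSeq promoters, since it is the member whose level moved with tau and virus in earlier results of these data, and H1f2 beside it as the most abundant linker histone. Each window holds 250 bases before and 50 bases after an annotated start on GRCm38.p6, on the gene's strand. Capitals mark ATTTGCAT, the octamer bound by Pou2f1 in H2B promoters, and CCAAT, each in either orientation, and TATAAA on the gene strand. The 3 motifs do not overlap each other in these windows.
H2bc6, gene-near start, chr13:23585921-23586220, minus strand: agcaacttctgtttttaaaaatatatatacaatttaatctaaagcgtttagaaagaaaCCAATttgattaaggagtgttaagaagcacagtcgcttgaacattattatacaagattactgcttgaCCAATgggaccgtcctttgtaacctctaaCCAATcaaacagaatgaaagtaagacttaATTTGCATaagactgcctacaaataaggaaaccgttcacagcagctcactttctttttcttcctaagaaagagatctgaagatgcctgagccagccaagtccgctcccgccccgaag
H2bc6, distant start, chr13:23621045-23621344, minus strand: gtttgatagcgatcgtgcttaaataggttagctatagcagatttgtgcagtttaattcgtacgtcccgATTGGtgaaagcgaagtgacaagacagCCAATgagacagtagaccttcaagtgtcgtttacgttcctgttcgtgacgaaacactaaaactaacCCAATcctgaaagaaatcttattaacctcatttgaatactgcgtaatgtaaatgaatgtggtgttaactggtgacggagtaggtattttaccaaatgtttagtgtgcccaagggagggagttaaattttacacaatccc
H1f2, chr13:23738557-23738856, plus strand: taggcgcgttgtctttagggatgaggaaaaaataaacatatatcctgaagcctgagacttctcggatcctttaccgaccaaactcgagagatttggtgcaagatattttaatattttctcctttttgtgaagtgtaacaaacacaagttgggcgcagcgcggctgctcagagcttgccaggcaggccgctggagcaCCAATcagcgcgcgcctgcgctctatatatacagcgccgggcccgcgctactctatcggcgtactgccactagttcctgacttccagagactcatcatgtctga

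The gene-near H2bc6 window holds the octamer once and CCAAT 3 times. The distant window holds CCAAT 3 times and no octamer, and the H1f2 window holds CCAAT once. Over the family the octamer was found in 7 of 13 H2B promoters and 6 of 14 H2A promoters but in 0 of 5 H1, 0 of 10 H3 and 0 of 9 H4 promoters, against 1.74% of all 32817 promoters of the same length. CCAAT was found in every H1, H2A, H2B and H3 promoter and in 3 of 9 H4 promoters, against 37.4% of all. TATAAA was found in 4 of 5 H1, 9 of 14 H2A, 3 of 13 H2B, 4 of 10 H3 and 6 of 9 H4 promoters, against 8.32%. A match is a run of letters and says nothing by itself about binding.

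Most members were near the floor in every table, and a linker histone and an H2B gene carried the family. H1f2, which encodes the linker histone H1.2 (Hist1h1c, GRCm38 chr13:23738808-23740367, plus strand), averaged 25.8 CPM over the unstimulated neurons, 38.1 in the stimulated neurons, 72.3 in the tau culture, 16.4 in the aged mice, 23.9 in the 10-month mice and 26.4 in the PS19 mice. H2bc4 (Hist1h2bc), which encodes an H2B, averaged 21.8, 24.9, 16.03, 20.4, 21.4 and 20.9 CPM in the same order. Together they made up from 56.0% of the family's CPM in the PS19 mice to 81.6% in the tau culture. Members under 0.1 CPM numbered 37 to 46 per table, and 5 to 16 had no count at all.

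The next members differed between cultures and tissue. H2bc21 (Hist2h2be), an H2B gene on chromosome 3, averaged 9.84 CPM in the aged mice, 10.6 at 10 months and 7.18 in PS19, but 3.53 and 2.30 CPM in the unstimulated and stimulated neurons and 6.60 in the tau culture. H2bc6 (Hist1h2be, chr13:23583670-23621124, minus strand) averaged 4.74, 6.04 and 7.76 CPM in the aged, 10-month and PS19 mice, and 2.87, 2.79 and 1.56 CPM in the 3 neuron tables. The most abundant H4 gene, H4c9, averaged 2.30 CPM in the unstimulated neurons, 2.37 at 10 months and 4.23 in PS19. Among H2A and H3 members, H2ac6 averaged 1.52 CPM in the aged and 2.09 CPM in the 10-month mice, and H3c15 averaged 2.42 CPM in PS19. Tables were scaled separately, so these levels are set side by side without a test.

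**Figure D1:**
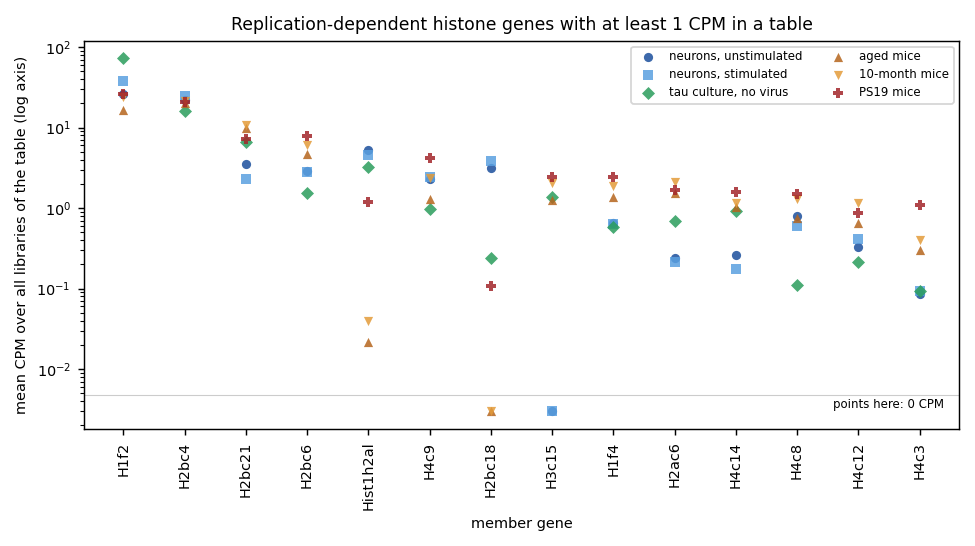
Mean CPM of each member with at least 1 CPM in some table (log axis), one point per table; points on the bottom line are at 0 CPM. H1f2 and H2bc4 lie highest in all 6 tables, while Hist1h2al, H2bc18 and H3c15 are present in some tables and near 0 or absent in others.

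Relative to exon length the order changes. In the unstimulated neurons H2bc4 stood at 18.9 CPM per kilobase and H1f2 at 16.5, followed by the annotated pseudogene Hist1h2al at 15.6 and H2bc18 at 8.27, while H2bc21 was at 1.35 and H2bc6, with a 4446-base model, at 0.645. In every table the median level per kilobase was lower for gene models that end at the stem-loop than for those that run on. No member whose model ends at the stem-loop averaged 1 CPM over the libraries of the neuron tables, the tau culture or the aged mice, and only H4c8 did in the 10-month and PS19 mice. In the unstimulated neurons the median level per kilobase was 0.0669 CPM for the 22 genes that end there and 0.120 for the 18 that run on. It was 0.169 for the 23 with no element found in the model, a set that mixes long models with short ones. In the PS19 mice the medians were 0.0497, 0.619 and 0.111 CPM per kilobase. In the 10-month mice they were 0.0694, 0.451 and 0.0258, so the genes with no element found in the model were lowest there. The count at 1 CPM is not scaled to length. Genes that end at the stem-loop have a median of 483.5 exon bases, against 1255 for those that run on and 411 for those with no element found. These levels are a description, with no test.

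Some members cannot be read alone. H2bc6 shares 450 exon bases with H1f4 on the same strand, and both overlap the predicted gene Gm11398 over 320 bases. H2bc18 overlaps Gm42743 on its own strand over 226 bases and Gm20628 on the other strand over its whole 381 bases. Near-identical copies are common in the family: of the 50-base windows in H3c15, 63.5% occur in another member, as do 67.6% in Hist1h2al and 45.8% in H4c8, against 8.54% in H1f2, 16.3% in H2bc6, 29.4% in H2bc4 and 0% in H2bc21. How the authors' counting split shared reads is not given in the sources used here.

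On day 9 the neurons with upACSS2 had more H2bc6 than those with vector, whichever material was added. In PBS the vector libraries held 1.69, 2.65 and 1.82 CPM and the upACSS2 libraries 3.23, 4.15 and 3.98 CPM. All upACSS2 libraries lay above all vector libraries. The log2 fold change was 0.91 ± 0.19 (SE, n = 3 against 3, adjusted p = 0.00573, edgeR's quasi-likelihood test). H2bc6 was the 1 of 9 tested members that passed the adjusted threshold of 0.05, where 10.2% of all genes passed and 4.9% were higher. At an unadjusted p below 0.05 there were 6 of 9 members and 26.2% of genes. Groups were apart upward for 2 members (16.6% of genes) and downward for H1f2 (14.2%), at 20.8, 20.7 and 17.9 CPM with vector and 17.4, 16.6 and 17.5 CPM with upACSS2. This call rests on few libraries: it was lost without vector PBS replicate 1, with DESeq2 and in a fit of all 24 unstimulated libraries.

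With tau added, H2bc6 was 2.25, 1.71 and 1.29 CPM with vector and 3.43, 2.90 and 3.53 CPM with upACSS2, again without overlap (log2 fold change 0.90 ± 0.21, adjusted p = 0.0473, edgeR). H2bc4 was 13.2, 10.6 and 13.5 CPM with vector and 20.4, 17.8 and 18 CPM with upACSS2. Here too the groups were apart, by 0.59 ± 0.10 on the log2 scale (adjusted p = 0.00582, edgeR). These were 2 of 9 members called, against 0.692% of genes called and 0.364% called higher. Groups were apart upward for 6 of 9 members (9.2% of genes), and 6 of 9 had an unadjusted p below 0.05 (12.6%). H1f4, a linker histone gene, was the member whose groups lay apart the other way (7.57% of genes): 0.578, 0.355 and 0.358 CPM with vector and 0.271, 0.269 and 0.334 CPM with upACSS2. Without vector tau replicate 2 neither call remained, and the fit of all 24 libraries made none.

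The 2 most abundant members fell with tau on day 9 in neurons with vector. H1f2 was 20.8, 20.7 and 17.9 CPM in PBS and 15.6, 12.9 and 13.2 CPM with tau. Every tau library lay below every PBS library, and the log2 fold change was -0.52 ± 0.08 (adjusted p = 0.00192, edgeR). H2bc4 fell from 17.3, 16.6 and 17.4 CPM to the values above, a log2 fold change of -0.47 ± 0.10 (adjusted p = 0.0111, edgeR). The 2 calls among 9 members compare with 4.28% of genes called and 2.27% called lower. H2bc6 did not pass (log2 fold change -0.17 ± 0.23). Groups were apart downward for H1f2, H2bc4 and H4c9, as for 10.2% of genes, and 4 of 9 members had an unadjusted p below 0.05 beside 20.6% of genes. All 9 tested members lay below 0, with a median of -0.47 against 0.00 over all genes. Leaving out single libraries gave 1 to 3 calls, and the fit of all 24 libraries gave 0.

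In neurons with upACSS2 no member passed on day 9 when tau was set against PBS (0 of 9 in edgeR, 0 in DESeq2, 1 at an unadjusted p below 0.05 beside 9.05% of genes, with 0.349% of genes called). H1f2 was 17.4, 16.6 and 17.5 CPM in PBS and 15.5, 14.9 and 16.3 CPM with tau, and H1f4 was 0.587, 0.594 and 0.681 CPM and 0.271, 0.269 and 0.334 CPM. Groups were apart downward for these and for H2bc21, that is for 3 of 9 members and 8.1% of genes. H1f4 averaged below the day 9 minimum of 0.532 CPM in each group but upACSS2 with PBS, and so was tested through the group in which it is high here, and H4c8 averaged below it with vector and tau. The day 9 counts that include these genes are not support on their own. The difference between the tau effects with each virus, the interaction, passed for no member either (0.663% of genes called, 3 of 9 members against 17.2% of genes at an unadjusted p below 0.05). H1f2 came nearest at a log2 difference of 0.38 (adjusted p = 0.0933, edgeR), and H2bc6 gave -0.0039 ± 0.31. The virus and tau comparisons share the libraries with vector and tau, so a high or low value in these enters both.

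**Figure D2:**
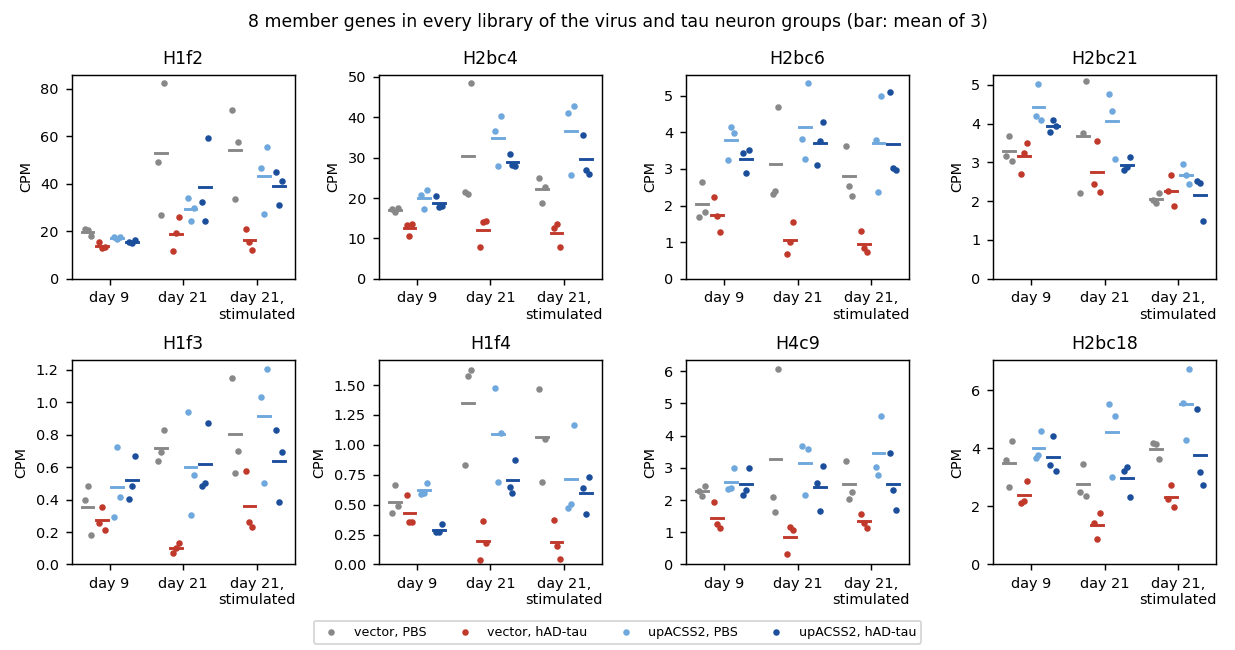
CPM of 8 members in each library of the virus-treated neurons, by day, stimulation, virus and added material; each point is a library and each bar the mean of 3. The libraries with vector and tau lie lowest for most members on day 21, where vector PBS replicate 3 lies highest for H1f2, H2bc4 and H4c9, and H2bc21 shows no such gap.

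On day 21 the libraries of the same treatment, vector and tau, held the least of nearly every tested member. H2bc6 was 2.31, 2.38 and 4.68 CPM with vector and PBS, 0.684, 0.991 and 1.54 CPM with vector and tau, 3.81, 3.28 and 5.35 CPM with upACSS2 and PBS, and 3.12, 3.76 and 4.28 CPM with upACSS2 and tau. The 3 vector and tau libraries lay below all 9 others. H2bc6 was singled out because earlier results of these data had it move with tau and virus on day 21. Its values here are therefore not independent support. Against vector and PBS the log2 fold change was -1.58 ± 0.37, to 0.343 of the PBS mean, and upACSS2 with tau stood 1.81 ± 0.37 above vector with tau, a ratio of 3.47. Neither passed in the fit of the 12 day 21 libraries (adjusted p = 0.530 and 0.172, edgeR), in which very few genes did: 0% for tau with vector and 0.0273% for the virus in tau.

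Other linker histones and H2B genes were arranged alike. H1f3, the gene for H1.3, was 0.638, 0.692 and 0.828 CPM with vector and PBS and 0.072, 0.104 and 0.132 CPM with vector and tau, which is 2 or 3 reads per library. H1f4, the gene for H1.4, was 0.834, 1.58 and 1.63 CPM and 0.036, 0.365 and 0.176 CPM in these groups. Both sets are apart, at log2 fold changes of -2.79 ± 0.51 and -2.91 ± 0.56. With upACSS2 and tau H1f3 was at 0.484, 0.505 and 0.873 CPM and H1f4 at 0.645, 0.597 and 0.873 CPM, above every vector and tau library. Both genes averaged below the filter's minimum of 0.466 CPM with vector and tau and were tested through other groups.

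The abundant members followed with more spread. H2bc4 was 21.5, 21.1 and 48.6 CPM with vector and PBS, 7.85, 14.2 and 14.4 CPM with vector and tau, and 30.8, 28.3 and 27.9 CPM with upACSS2 and tau. The vector and tau libraries are again the lowest, by -1.35 ± 0.33 against PBS and with upACSS2 above them by 1.27 ± 0.33 on the log2 scale. H1f2 was 49.2, 26.8 and 82.5 CPM with vector and PBS, 11.8, 19.2 and 26.1 CPM with vector and tau, and 32.1, 24.2 and 59.2 CPM with upACSS2 and tau. Its tau groups overlap (log2 fold change 1.03 ± 0.43), while vector and tau lay below vector and PBS (-1.49 ± 0.43). H2bc21 was 2.21, 3.77 and 5.08 CPM, 2.45, 3.55 and 2.24 CPM, and 2.79, 2.89 and 3.14 CPM in the same 3 groups, so all overlapped (-0.46 ± 0.30 for tau, 0.12 ± 0.31 for the virus).

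H4c9 gave 2.11, 1.62 and 6.06 CPM with vector and PBS, 0.324, 1.15 and 1.06 CPM with vector and tau and 2.53, 1.65 and 3.06 CPM with upACSS2 and tau, and H2bc18 gave 2.50, 3.46 and 2.34, then 1.44, 0.886 and 1.76, then 3.22, 3.35 and 2.31 CPM. For both genes the vector and tau libraries lay below the other groups. Of the 13 tested members, 10 had vector and tau libraries entirely below vector and PBS, against 4.56% of genes, and 11 had upACSS2 and tau entirely above vector and tau, against 9.47%. Unadjusted p was below 0.05 for 12 of 13 in each comparison, against 9.3% and 10.7% of genes, and the median log2 fold changes were -1.66 and 1.70 against -0.01 and 0.01 over all genes. These counts are not support on their own, because the filter keeps a gene that is high in any group: H1f3, H1f4, H2bc1, H2bc8, H4c8 and H4c12 averaged below the minimum of 0.466 CPM in vector and tau and were tested through other groups. The remaining measured members had too few counts to be tested.

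Whether a member was called on day 21 depended on the fit. Called sets come from edgeR on the 12 libraries (0 of 13 in each comparison), DESeq2 on the same libraries (3 for the virus in tau and 1 for tau with vector) and edgeR on all 24 unstimulated libraries (7 and 4), where day 9 libraries also inform the spread. EdgeR's measure of the spread between replicates, a coefficient of variation, was 0.189 in the day 21 fit. It was 0.042 in the day 9 fit and 0.135 in the fit of 24 libraries. The last fit thus took a smaller spread for day 21 than those libraries gave alone. Its calls and those of DESeq2 come without the share of all genes called, so they are not support on their own. H1f3, H1f4 and H4c8 averaged below the filter's minimum of 0.466 CPM with vector and tau. Since H2bc6 was singled out for its move on day 21, its p-values in these fits are not support on their own. DESeq2 called H2bc6 (adjusted p = 0.0019), H2bc4 (0.0247) and H1f3 (0.0422) higher with the virus in tau, and H1f4 (0.0107) lower with tau in vector. The fit of 24 libraries called H2bc6 (adjusted p = 0.0047, edgeR), H2bc4, H1f3, H1f4, H4c8, H2bc18 and Hist1h2al higher with the virus in tau, and H1f4 (0.00838), H1f3, H2bc4 and H2bc6 (0.0415) lower with tau in vector. Without vector PBS replicate 3, which holds 172 CPM of family total against 69.8 and 89.5 in the other 2, the median for tau with vector was -1.16 and 10 of 13 members had an unadjusted p below 0.05.

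The remaining day 21 comparisons gave no call either. With upACSS2, tau against PBS gave 0 calls (edgeR and DESeq2; 0 of 13 members and 6.36% of genes at an unadjusted p below 0.05), and H2bc6 stood at -0.14 ± 0.34. Only H2bc8 had groups apart there, at 1.15, 0.562 and 0.650 CPM in PBS and 0.537, 0.459 and 0.306 CPM with tau (-0.86 ± 0.45), as did 9.4% of genes. In PBS, upACSS2 against vector also gave 0 calls (edgeR and DESeq2; 0.0137% of genes called, 1 of 13 members and 16.6% of genes at an unadjusted p below 0.05), with H2bc6 at 0.38 ± 0.34. The interaction on day 21 passed for no member (0% of genes called), and 7 of 13 had an unadjusted p below 0.05 against 8.3% of genes. It was 1.44 ± 0.51 on the log2 scale for H2bc6 (adjusted p = 0.545, edgeR) and 0.00 ± 0.42 for H2bc21.

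**Figure D3:**
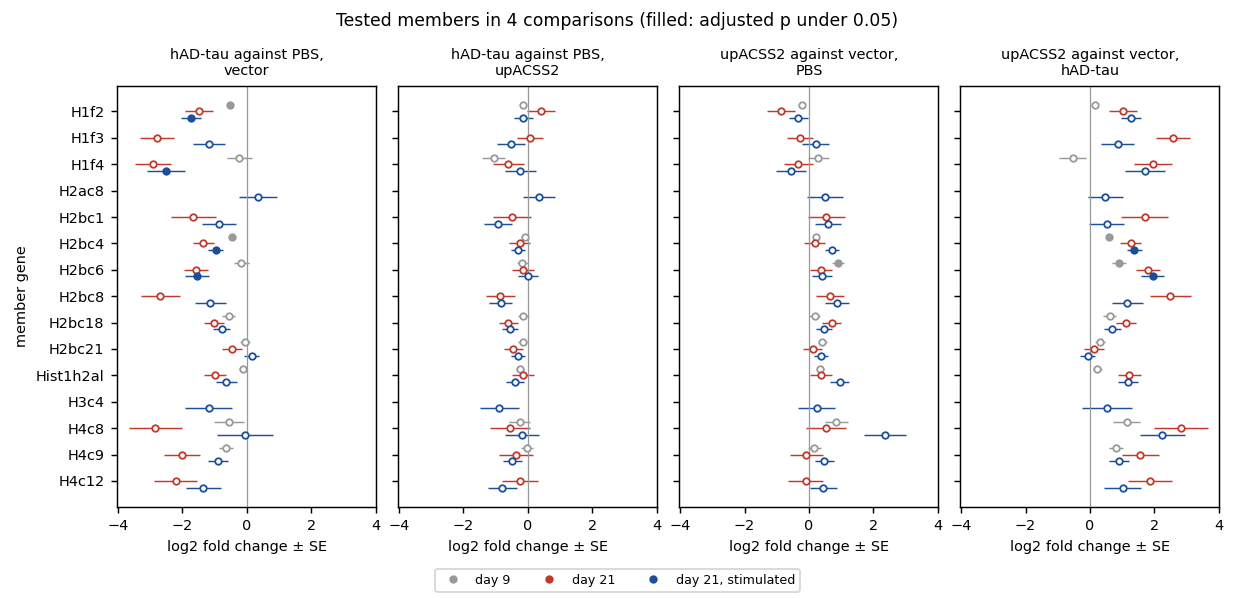
Log2 fold change ± SE of 15 tested members in the 4 comparisons of virus and tau, for day 9, day 21 and stimulated neurons; filled symbols passed an adjusted p of 0.05. Tau with vector lies below 0 and the virus in tau above 0 for most members on day 21 and after stimulation, and both comparisons use the same vector and tau libraries.

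Day 21 was set against day 9 within each of the 4 groups. With vector and PBS 5 of 14 tested members rose and none fell, where 57.7% of all genes passed in either direction and 30.6% rose. H1f2 rose by 1.42 ± 0.32 on the log2 scale (adjusted p = 0.000898, edgeR), H1f4 by 1.40 ± 0.38, H1f3 by 1.00 ± 0.40, H2bc4 by 0.84 ± 0.25 and H4c12, an H4 gene, by 1.91 ± 0.71. In that group 7 of 14 had an unadjusted p below 0.05 (61.9% of genes) and 5 were apart upward (30.3%). With vector and tau none rose, Hist1h2al fell by 0.89 ± 0.28 (log2 fold change, adjusted p = 0.0116, edgeR) and H2bc18 fell by 0.79 ± 0.29 (adjusted p = 0.0252, edgeR), 2 of 14 where 52.7% of genes passed and 24.9% fell. There 6 of 14 had an unadjusted p below 0.05 (58.1% of genes) and 3 were apart downward (28.6%). The median member stood at -0.76, against 0.04 over all genes.

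With upACSS2 and PBS, H2bc4 (0.81 ± 0.25), H2bc1 (1.49 ± 0.55) and H4c12 (2.20 ± 0.79) rose, 3 of 14 beside 54.3% of genes called and 28.5% risen. With upACSS2 and tau, H1f2 (1.31 ± 0.33), H1f4 (1.25 ± 0.44) and H2bc4 (0.63 ± 0.25) rose, 3 of 14 beside 53.6% called and 27.2% risen. With upACSS2, 5 of 14 in PBS and 3 of 14 in tau had an unadjusted p below 0.05 (59.3% and 58.7% of genes). Groups were apart upward for 6 in PBS (33.8%) and 5 in tau (34.5%), and downward for 2 in tau (33.8%). H2bc6 passed in none of the 4 groups, at 0.64 ± 0.30 with vector and PBS and -0.72 ± 0.34 with vector and tau (adjusted p = 0.0694 and 0.0806, edgeR). Shares of members called were below the share of all genes in each group. The day contrasts in different groups were not tested against each other.

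In the stimulated day 21 neurons the arrangement of day 21 was seen again in separate libraries. Here members passed the test in the main fit, though not in every setting. The labels do not say whether these libraries came from other cultures, so they cannot be read as an independent repeat. H2bc6 was 3.63, 2.53 and 2.25 CPM with vector and PBS, 1.31, 0.831 and 0.733 CPM with vector and tau, 3.78, 2.36 and 4.98 CPM with upACSS2 and PBS, and 5.09, 3.03 and 2.96 CPM with upACSS2 and tau. The vector and tau libraries were the lowest of the 12. It fell with tau in vector, a log2 fold change of -1.55 ± 0.36 (adjusted p = 0.0467, edgeR), to 0.342 of the PBS mean, and rose with the virus in tau by 1.96 ± 0.36 (adjusted p = 0.0331, edgeR), a ratio of 3.85.

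For H1f2 the stimulated libraries read 71.1, 33.7 and 57.6 CPM with vector and PBS, 20.9, 15.4 and 12.2 CPM with vector and tau, and 44.8, 30.9 and 41.1 CPM with upACSS2 and tau. Vector and tau lay below both, with log2 fold changes of -1.74 ± 0.31 for tau (adjusted p = 0.0290, edgeR) and 1.27 ± 0.31 for the virus (adjusted p = 0.0685, edgeR). H2bc4 was 25.02, 18.8 and 22.6 CPM, 12.7, 13.5 and 7.84 CPM, and 35.7, 27.0 and 26.1 CPM in these groups. It fell with tau by 0.96 ± 0.23 on the log2 scale (adjusted p = 0.0491, edgeR) and rose with the virus by 1.38 ± 0.23 (adjusted p = 0.0304, edgeR). H1f4 had 27 to 32 reads per library with vector and PBS and 1 to 7 with vector and tau, that is 1.47, 0.687 and 1.05 CPM against 0.368, 0.151 and 0.0458 CPM, and fell by 2.50 ± 0.59 (adjusted p = 0.0471, edgeR).

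The 4 members that fell with tau were 4 of 15 tested, where 3.02% of genes were called and 1.76% fell, and the 2 that rose with the virus compare with 0.937% called and 0.395% risen. Groups did not overlap for 10 of 15 in the first comparison (13.1% of genes) and 9 of 15 in the second (12.4%), and 9 of 15 in each had an unadjusted p below 0.05 (24.3% and 20.4%). As on day 21, 8 of the 15 averaged below the filter's minimum, here 0.358 CPM, in vector and tau and were tested through other groups. They are H1f3, H1f4, H2ac8, H2bc1, H2bc8, H3c4, H4c8 and H4c12. H1f4 is among the 4 called, so these counts are not support on their own. H2bc21 again showed no gap, with 2.02, 1.96 and 2.22 CPM against 2.26, 2.68 and 1.88 CPM (0.15 ± 0.22). With only the 2 groups compared in the fit, no member was called in either comparison (0 as against 4 and 2). Without vector tau replicate 1 or 3, none of the calls remained in either comparison, nor with vector PBS replicate 1 or 3 left out for tau or any upACSS2 and tau library left out for the virus. With the replicate number as a block, which the libraries' deviations allow in these 2 comparisons, 4 members were called for tau and 3 for the virus. The added one was H1f2 (adjusted p = 0.0191, edgeR). The block was fitted over all 12 stimulated libraries. Its counts come without the share of all genes called and are not support on their own.

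No member was called for upACSS2 against vector in PBS after stimulation (edgeR, 0.208% of genes called, and 4 of 15 members beside 15.9% of genes at an unadjusted p below 0.05). DESeq2 called H4c8 and Hist1h2al, without the share of all genes called, so its calls are not support on their own. H4c8 was 0.275, 0.0982 and 0.272 CPM with vector and 1.30, 0.533 and 1.34 CPM with upACSS2, without overlap (2.37 ± 0.65, adjusted p = 0.134, edgeR). Groups were apart upward for 7 of 15 members and 11.3% of genes. H4c8, H2ac8, H2bc1 and H3c4 averaged below the minimum of 0.358 CPM with vector and PBS and were tested through other groups, so this count is not support on its own. H1f2 had the opposite sign there (-0.32 ± 0.29). For tau against PBS with upACSS2 there were 0 calls in edgeR and DESeq2 (0.208% of genes called; 2 of 15 members and 14.3% of genes at an unadjusted p below 0.05), and H2bc6 stood at -0.0021 ± 0.31. Groups were apart downward for H2bc8 and H2bc1, 2 of 15 members beside 11.2% of genes. The interaction was 1.55 ± 0.48 for H2bc6, 1.59 ± 0.42 for H1f2 and 2.26 ± 0.77 for H1f4, all with an unadjusted p below 0.05 and none past the adjusted threshold (H2bc6 adjusted p = 0.239, edgeR; 0% of genes called). DESeq2 called the H1f2 interaction (adjusted p = 0.0253), and so did edgeR with the replicate block (adjusted p = 0.0386). The interaction uses every stimulated group. Same-numbered libraries did not deviate together for the virus in PBS (correlations -0.113 to 0.151) or for tau with upACSS2 (-0.126 to 0.158). The block call is therefore not support.

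To set the 2 day 21 tables side by side, their 24 libraries were scaled jointly. Of 17 members, groups of stimulated and unstimulated libraries did not overlap for 1 upward and 2 downward with vector and PBS (12% and 10.3% of 15108 genes) and for 2 and 0 with vector and tau (9.28% and 7.75%). With upACSS2 there were 0 and 1 in PBS (13.4% and 11.8%) and 0 and 3 in tau (10.5% and 10.6%). H2bc18 was higher in the stimulated libraries with vector in both PBS and tau, and H2bc21 was lower with vector and PBS and with upACSS2 in both. Stimulation and table cannot be told apart here, and no test was made.

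Several lists of related genes give the setting of these values. The genes for replication-independent histones, such as H3f3a and H3f3b for histone H3.3, which are expressed outside S phase with ordinary poly(A) tails, are the first: of 10 measured, 0 were called on day 21 in either comparison with vector and tau (medians -0.05 for tau and -0.15 for the virus). After stimulation 1 of 10 fell with tau (median -0.07) and 0 changed with the virus. Genes of histone mRNA 3′ end processing, among them Slbp, gave 0 of 17 on day 21 (medians 0.03 and -0.08), and after stimulation 1 rose with tau. Factors of histone gene transcription, such as Npat and Pou2f1, gave 0 of 12 in the same comparisons on day 21 and after stimulation (medians -0.01, 0.08, 0.06 and -0.08).

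S phase and proliferation genes, such as Mki67 and Mcm2, are the genes of dividing cells. On day 9, 9 of 25 fell with tau in vector (median -0.34, where 2.27% of all genes fell) and 13 of 25 fell with upACSS2 in PBS (median -0.37, where 5.35% fell), the comparison in which H2bc6 rose. On day 21 none of 25 was called; the median was -0.15 for tau with vector and 0.28 for the virus in tau, and 0.77 for the virus in PBS, where no histone gene passed. From day 9 to day 21 the list rose in 5 of 25 genes with vector and PBS, 7 with vector and tau, 24 with upACSS2 and PBS and 20 with upACSS2 and tau, where 30.6%, 27.7%, 28.5% and 27.2% of all genes rose. The summed level of the list on day 21 was 295 to 412 CPM with vector and PBS and 278 to 381 CPM with vector and tau, so these groups overlapped. The part of dividing cells in the histone levels was not tested.

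Markers of other cells moved with some of the groups. The 8 astrocyte markers, none of them at 0, summed to 2278 to 2840 CPM in the day 9 libraries, where the groups were close. On day 21 they summed to 4706 to 20480 CPM with vector and PBS, 3668 to 5828 CPM with vector and tau, 4032 to 6686 CPM with upACSS2 and PBS and 6147 to 11602 CPM with upACSS2 and tau. The library at 20480 CPM is vector PBS replicate 3, the one highest in H1f2 and H2bc4. After stimulation the sums were 6294 to 10223, 3032 to 4770, 5574 to 9988 and 7479 to 8461 CPM in the same order, and 2 of 8 markers fell with tau in vector (median -0.90) while 0 of 8 passed for the virus in tau (median 0.95). The stimulated libraries with vector and tau had the lowest sums, as they had the lowest levels of H2bc6. On day 21 the range with vector and tau (3668 to 5828 CPM) lay wholly below that with upACSS2 and tau (6147 to 11602 CPM). It overlapped the ranges of both PBS groups. The family total on day 21 was 77.2 to 111 CPM with upACSS2 and PBS and 28.0 to 52.1 CPM with vector and tau. The part of these cells in the result was not tested. In bulk RNA, fewer cells of a type and less RNA per cell cannot be told apart.

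**Figure D4:**
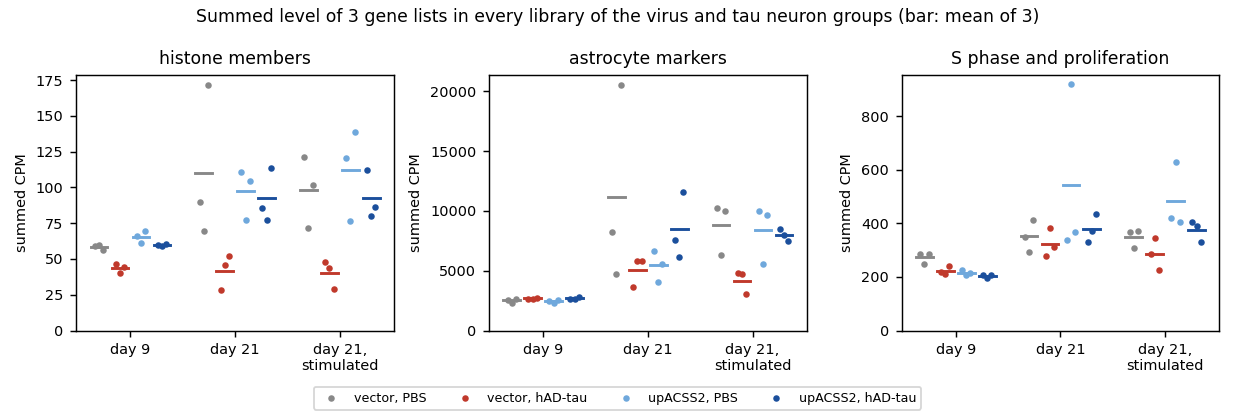
Summed CPM per library of the histone genes, the 8 astrocyte markers and the S phase list in the virus-treated neurons; points are libraries and bars means of 3. The histone sum is lowest with vector and tau in all 3 sets, and the astrocyte sum varies most with vector and PBS on day 21.

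Oligodendrocyte precursor markers fell on day 9 in 4 of 5 genes with upACSS2 in PBS (5.35% of all genes) and in 3 of 5 with tau in vector (2.27%), and rose in 5 of 5 from day 9 to day 21 in each of the 4 groups (27.2% to 30.6%). They summed to 846 to 1605 CPM with vector and tau and 967 to 1362 CPM with vector and PBS on day 21. Neuron markers summed to 4893 to 7227 and 4574 to 7376 CPM in these 2 groups. Microglia markers were scarce in the virus-treated cultures, at 3.16 to 15.2 CPM for 7 genes. The part of each in the result was not tested.

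In the culture without virus, no member fell or rose with tau. H1f2 was 58.0, 85.7 and 41.8 CPM in PBS and 54.3, 47.9, 139 and 79.5 CPM with tau, and H2bc6 was 1.52, 1.72 and 0.759 CPM and 1.48, 1.11, 3.28 and 1.05 CPM. The groups overlapped for both. No member was called (0 of 12 in edgeR, 0 in DESeq2 and 0 at an unadjusted p below 0.05, where 0% and 13.9% of genes were). H2bc6 differed by 0.41 ± 0.51 (log2), and the median was 0.24 against 0.01 over all genes. Tau replicate 3 was the highest library for H1f2 and H2bc6, and without it the H2bc6 difference was -0.11. An SE of this size leaves room for a change in either direction. Astrocyte markers summed to 2213 to 9934 CPM in PBS and 7208 to 13993 CPM with tau.

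In the aged mice no member was called for upACSS2 against vector (0 of 9 in edgeR and DESeq2, 0% of genes called; 1 of 9 beside 5.58% of genes at an unadjusted p below 0.05). H2bc4 ran from 13.4 CPM through a median of 21.0 to 26.8 CPM with vector and from 16.3 through 19.6 to 23.9 CPM with upACSS2. H2bc6 ran from 3.96 through 4.89 to 6.88 CPM and from 3.35 through 4.23 to 5.86 CPM (log2 difference -0.18 ± 0.10). Both pairs of groups overlapped over most of their range. H2ac6, an H2A gene, had the lowest unadjusted p: 0.776 through 1.57 to 3.83 CPM with vector and 0.631 through 1.26 to 1.81 CPM with upACSS2 (-0.61 ± 0.22, adjusted p = 0.832, edgeR).

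At 10 months again 0 of 9 members passed (edgeR and DESeq2; 0% of genes called; 1 of 9 beside 8.83% of genes at an unadjusted p below 0.05). The 1 was H2bc6, at 4.42 through 5.31 to 6.16 CPM with vector and 5.34 through 6.40 to 8.33 CPM with upACSS2, overlapping groups with a difference of 0.35 ± 0.15 (adjusted p = 0.547, edgeR). H1f2 ran from 19.5 through 27.3 to 35.6 CPM with vector and from 13.7 through 21.3 to 33.8 CPM with upACSS2 (-0.32 ± 0.20). Its groups overlapped too.

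PS19 mice, which carry mutant tau in both virus groups, showed 0 of 16 members called at 1 month and at 6 months (edgeR and DESeq2; 0% of genes called each; 0 of 16 and 1 of 16 at an unadjusted p below 0.05, against 2.96% and 14.2% of genes). H2bc6 ran from 6.02 through 7.71 to 10.7 CPM with vector and 6.23 through 8.14 to 11.6 CPM with upACSS2 at 1 month, and from 5.89 through 6.48 to 8.37 CPM and 5.43 through 7.15 to 10.3 CPM at 6 months. The 4 groups overlapped, at log2 differences of 0.12 ± 0.19 and 0.05 ± 0.19 for the virus. H2bc4 had the unadjusted p below 0.05 at 6 months (0.37 ± 0.17, adjusted p = 0.343, edgeR). No member changed between 1 and 6 months with vector (0 of 16 in edgeR and 0 at an unadjusted p below 0.05, where 7.07% and 25% of genes were), nor with upACSS2 (0.0442% called; 0 of 16 beside 13.8%), nor in the interaction (0% called; 0 of 16 beside 12.4%). Since upACSS2 at 1 month is the group from whole hippocampus, time and tissue cannot be told apart in the last 2 of these.

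The levels of 3 members differed widely between the tables. Hist1h2al (chr13:51202727-51203065, minus strand, annotated as a processed pseudogene) averaged 5.28 CPM in the unstimulated and 4.58 in the stimulated neurons and 3.21 in the tau culture. It was at most 0.145 CPM in any aged and 0.317 CPM in any 10-month mouse, and in the PS19 mice it ran from 0.0678 to 2.49 CPM with wide spread inside each group. H3c15, an H3 gene, was listed at 0 in all 36 virus-treated neuron libraries and averaged 1.35 CPM in the tau culture and 2.42 in PS19. H2bc18 averaged 3.15 and 3.90 CPM in the 2 virus-treated tables, 0.243 CPM in the tau culture and 0.107 CPM in PS19, and was at 0 in the aged and 10-month mice. The tables list 25239 symbols for the virus-treated neurons and 55367 for the others, and the tau culture, also of hippocampal neurons, is among the latter. For H2bc18 and H3c15 the gap thus lies between 2 sets of cultured neurons as well. The part of the tables' annotation in these gaps was not tested.

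**Figure D5:**
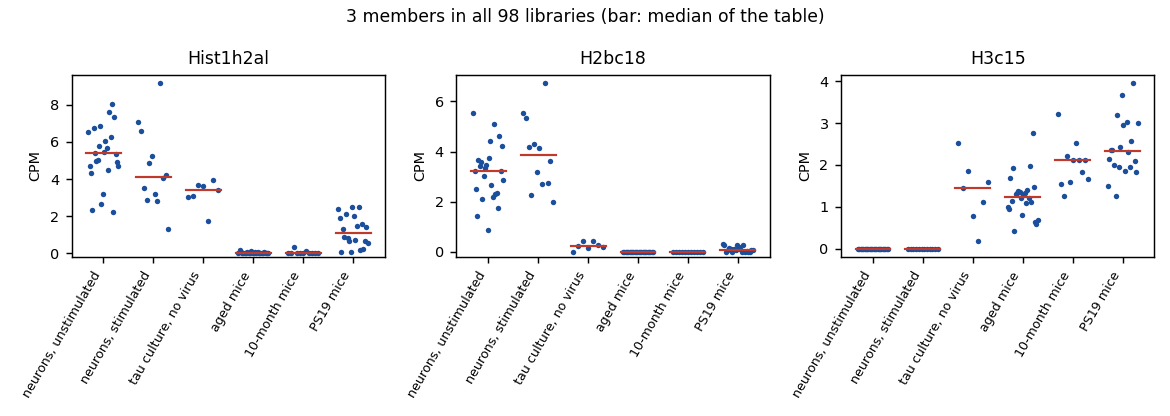
CPM of Hist1h2al, H2bc18 and H3c15 in all 98 libraries by table; points are libraries and bars table medians. Hist1h2al and H2bc18 are present in the virus-treated neurons and at or near 0 in aged and 10-month mice, and H3c15 shows the reverse.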

How the data were processed

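The authors deposited raw gene counts in 6 tables, 1 column per library and all 98 used. The submitters' processing notes name STAR, featureCounts, HTSeq, DESeq2 and mm10. Their versions and roles, the annotation and the strand setting are not given in the sources used here. A row without a gene name, 6.13% to 8.74% of counts in the tau culture, was left out. Replicate libraries differed by more than sampling noise (lowest chi-square per degree of freedom 2.32).

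Counts were fitted with edgeR 4.0.16 in R 4.3.3 (TMM scaling, filterByExpr by group, quasi-likelihood F test, two-sided, Benjamini-Hochberg over all genes tested, threshold 0.05). Day 9, day 21, stimulated neurons and each other table had their own fit, and day 21 against day 9 used all 24 unstimulated libraries. In all, 27 comparisons were made. An SE is the absolute log2 fold change over the root of F. Known changes were recovered in simulated counts, which follow the model they were drawn from. That recovery is therefore no check on how well the reported fits describe the deposited counts. Figures and tables were made with Python 3.11.15, pandas 2.3.3, numpy 2.4.6 and matplotlib 3.10.9.

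The members and lists were chosen with earlier results of these data known. Named members are those past the threshold (at most 6 each way), the 6 with the highest mean CPM per table, the highest of each histone class, H2bc6 throughout and, where nothing passed, the highest and lowest fold change among groups that do not overlap. Others are named after their values were seen. Alternatives were a replicate block, DESeq2 1.42.0, no filter, RLE size factors, only the groups compared, all 24 unstimulated libraries, each library left out (not in aged mice), and a term for replicate sets 1 to 3 and 4 to 12 in aged mice. Same-numbered libraries deviated together, with each correlation above 0.1, for stimulated upACSS2 against vector in tau (0.111 to 0.383), stimulated tau against PBS with vector (0.140 to 0.344) and the tau culture (0.220 to 0.394). Elsewhere they did not.

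Counting error is largest for members near 1 count per library. How reads shared by near-identical or overlapping members were counted is unknown. Promoters come from RefSeq (GRCm38.p6) and transcripts from GENCODE M21.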

Additional observations from a re-analysis of the deposited data

Results flagged for a closer look

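Of 56 sets of values, 7 held 1 value that stood far from the rest. A set is a named gene or the family total in a group of 4 to 10 mice or libraries. Chance flags about 1 in 20 such sets if they are independent, but sets of different genes share the same mice. Groups outside this size were not checked, namely the virus-treated neurons, the PBS libraries of the tau culture and the aged mice. Apart from the tau libraries of that culture every group checked was of mice, so it says little that all 7 were in mice. In the 10-month mice H2bc4 reached 30.6 CPM in an upACSS2 mouse against 17.5 to 21.9 CPM in the others, and H3c15 was 1.55 CPM in a vector mouse against 2.12 to 2.22 CPM. In the PS19 mice H1f2 was 35.8 CPM in an upACSS2 mouse at 1 month against 23.4 to 25.3 CPM, and H4c9 was 7.02 CPM in an upACSS2 mouse at 6 months against 2.87 to 4.07 CPM. H2ac6 was 2.96 CPM in a vector mouse at 1 month against 1.38 to 1.76 CPM, and 1.72 CPM in a vector mouse at 6 months against 1.17 to 1.30 CPM. The family total of upACSS2 replicate 3 at 6 months was 129 CPM against 68.0 to 83.9 CPM in the other mice of its group.

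For the linker histone genes H1f2 and H1f4 the virus had opposite signs in different neuron sets, each with no overlap between groups. H1f2 stood at -0.22 (log2 fold change, upACSS2 against vector) in PBS on day 9 and at 1.27 in tau after stimulation. H1f4 in tau stood at -0.54 on day 9, 1.97 on day 21 and 1.70 after stimulation. These differences were not tested.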

How the results depend on the processing

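Counts of called members moved by over 1.5 times as follows, and the cause was not tested. The counts under these other settings come without the share of all genes called and are not support on their own. Without the filter the count was 2 (as against 1) on day 9 for the virus in PBS, 4 (2) for the virus in tau and 1 (0) for the interaction, and 5 (3) for day 21 against day 9 with upACSS2 and PBS. With DESeq2 it was 0 (1) and 1 (2) for the virus on day 9 in PBS and in tau, 3 (0) and 1 (0) on day 21 for the virus in tau and tau with vector, 4 (2) and 5 (3) for the days with vector and tau and with upACSS2 and PBS, and after stimulation 2 (0) and 5 (2) for the virus in PBS and in tau and 1 (0) for the interaction. In the fit of 24 libraries it was 0 for the virus in PBS (1), the virus in tau (2) and tau with vector (2) on day 9, and 7 and 4 (0 each) for the virus in tau and tau with vector on day 21. With only the groups compared it was 1 (2) on day 9 for the virus in tau, 2 (5) for the days with vector and PBS, and 0 after stimulation for the virus in tau (2) and tau with vector (4). With the replicate block it was 1 (2) on day 9 for the virus in tau, 4 (2) for the days with vector and tau and 1 (0) for the stimulated interaction.

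With each library left out in turn, calls ranged from 0 to 2 for the virus in PBS, 0 to 2 for the virus in tau and 1 to 3 for tau with vector on day 9. For the days they ranged from 3 to 8 (vector and PBS), 1 to 4 (vector and tau), 1 to 4 (upACSS2 and PBS) and 1 to 2 (upACSS2 and tau). After stimulation they ranged from 0 to 2 (virus in tau) and 0 to 4 (tau with vector), and in each other comparison tested this way they were 0. The low ends came on day 9 without vector PBS replicate 1 (virus in PBS), vector tau replicate 2 (virus in tau) and either of these (tau with vector). For the days they came without day 9 or day 21 replicate 3 with vector and PBS, day 9 replicate 3 with vector and tau, day 9 replicate 2 or 3 or day 21 replicate 1 with upACSS2 and PBS, and day 9 replicate 1 or 2 or day 21 replicate 3 with upACSS2 and tau.

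H2bc6 changed sign in some comparisons, among them the tau culture (0.41). Its day 9 interaction (-0.0039) was 0.0015 with no filter, 0.0049 with DESeq2, 0.0066 with the replicate block, 0.0087 in the fit of 24 libraries and -0.20 to 0.21 with a library left out. With a library left out it ran from -0.39 to 0.025 for tau with vector on day 9, -0.28 to 0.072 for tau with upACSS2 on day 21, -0.089 to 0.27 for the days with upACSS2 and PBS, -0.30 to 0.27 for stimulated tau with upACSS2 (0.0027 with only the groups compared), -0.11 to 0.72 in the tau culture, -0.094 (without upACSS2 replicate 3) to 0.14 in PS19 mice at 6 months and -0.22 to 0.038 for the PS19 interaction. RLE size factors moved no count by over 1.5 times. Members near 1 count per library are limited by depth.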
